A study of Mus musculus with 6 samples.

Results

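Translation initiation factor genes were followed in the liver of high-fat-diet (HFD) fed mice given ONX-0914, an inhibitor of the immunoproteasome. The set was taken by symbol: every gene of the deposited expression matrix whose symbol begins with Eif1 to Eif6, without the eIF2 kinases (Eif2ak) and without symbols containing -ps. This gave 52 of the 22851 genes in the matrix, and 5 further Eif rows were excluded by the rule. All animals were male C57BL/6J mice on the high-fat diet. The 3 control libraries (vehicle 1, 2 and 4) came from vehicle-treated mice, and the 3 treated libraries (ONX-0914 1, 3 and 4) from mice given ONX-0914 subcutaneously at 10 mg/kg every other day over 6 weeks. No untreated lean group was used here, so the diet is shared by both groups. The design text speaks of 2 biological replicates a group against the 3 libraries present, and no label says that each library is a separate animal, so the p-values speak only of the variation among these libraries.

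Initiation begins when eIF2 loads the initiator methionyl tRNA on the small ribosomal subunit together with eIF1, eIF1A, eIF3 and eIF5. The mRNA is brought in by eIF4F, made of the cap-binding protein eIF4E, the helicase eIF4A and the scaffold eIF4G. The pathway is controlled at a pair of points: eIF2B recharges eIF2 with GTP and is blocked by phosphorylated eIF2, and the 4E-binding proteins hold eIF4E away from eIF4G until mTORC1 phosphorylates them. Liver is a site of heavy protein synthesis, and both controls respond there to amino acids, insulin and stress.

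The values were read as FPKM, fragments per kilobase of transcript scaled to sequencing depth, a unit inferred from the values. Whether reads or fragments were counted, and how libraries were scaled, is not stated. Levels are compared between genes on this per-length scale. Of the 52 genes, 49 passed the filter for testing, an FPKM above 1 in at least 3 libraries. Eif4e1b and Eif4a3l1 were listed at 0 in all 6 libraries. Eif5a2 was listed at 0, 0.11 and 0.39 in the vehicle libraries and at 0 in the treated ones. Among the tested genes 47 were above 1 in every library, and Eif4e3 passed only through its vehicle values, so its difference is a description and its place among the falls supports nothing. Differences are given on the log2(FPKM + 1) scale, ONX-0914 minus vehicle, with the standard error and the limma p adjusted over all tested genes. A gene is said to have risen or fallen where that p was under 0.05.

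The treated libraries stood apart from the controls over the whole transcriptome. Of 10743 genes tested, 43.5% fell and 2.56% rose, and the median log2 difference was -0.64. ONX-0914 3 lay nearer to the controls: its median over all genes was -0.38 against -0.74 and -0.79 in ONX-0914 1 and 4. Summed FPKM of 6 sinusoidal endothelial markers was 105.4 to 113.0 in vehicle and 18.0 to 29.4 in treated libraries, and all 6 of these markers fell. The 6 stellate cell markers summed to 241.4 to 309.1 and 54.2 to 117.1, with 4 lower, and 4 of 6 Kupffer cell markers fell (sums 245.9 to 413.0 and 156.0 to 320.9). Among cholangiocyte markers 1 of 4 tested fell (sums 72.8 to 77.8 and 72.0 to 123.4), among lymphocyte markers 1 of 2 tested (5.88 to 8.89 and 3.54 to 5.04), and none of 4 neutrophil markers passed (291.8 to 1762 and 177.7 to 4327). The 10 hepatocyte markers, which mark the labelled tissue, summed to 81810 to 86850 and 57970 to 86440, with 3 lower and 1 higher. No listed marker of these cell types was at 0 in all libraries. In whole liver, fewer cells of a type and less RNA per cell cannot be told apart. The part of these shifts in the results below was not tested, and the main counts are therefore given also after median ratio scaling, which sets the median over all genes to -0.01, and after removal of the trend of the differences with transcript length.

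Most initiation factor genes did not pass the test, and those that did were spread over different steps of the pathway. On the deposited scale 3 of 49 rose (6.12%, against 2.56% of all genes), 10 fell (20.4%, against 43.5%) and 36 were not called. Without Eif4e3 there were 9 falls among 48 genes (18.8%). The share over all genes still holds genes that passed the filter through vehicle only. The part of expression level and filter in this contrast was not tested. The median difference of the 49 genes was -0.26, against -0.64 over all genes. The steepest falls were those of Eif4ebp2, a repressor of eIF4E, of Eif2s3x, the X-linked gene of eIF2 gamma, and of Eif4h, a cofactor of the eIF4A helicase. The 3 that rose were Eif2b5 and Eif2b4, which encode the epsilon and delta subunits of eIF2B, and Eif1, the factor for start codon selection.

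After median ratio scaling 20 initiation factor genes were higher (40.8%, against 13.8% of all genes) and 4 were lower (8.16%, against 14.2%). With the length trend removed 13 were higher (26.5%, against 9.61%) and 4 were lower (8.16%, against 11.7%). Under both, the 3 genes that rose kept their calls, as did Eif4ebp2, Eif2s3x and Eif4h. Both settings raised the differences of the 3 rises: Eif1 went from 0.67 to 1.47 and 0.89. Eif2b4 went from 0.68 to 1.44 and 1.19, and Eif2b5 from 0.88 to 1.65 and 1.55. Their kept calls could therefore hardly have been lost and add no support. Eif4e3 was the fourth gene called lower, and without it 3 of 48 genes were lower under each. The other 6 falls did not pass. The median difference of the 49 genes turned from negative to 0.45 and 0.28. Counted without a model, all 3 treated values lay above all 3 vehicle values for 11 of the 49 genes (4.93% of all genes did so), and below them for 17 (53.5% of all genes), while 21 overlapped.

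**Figure D1:**
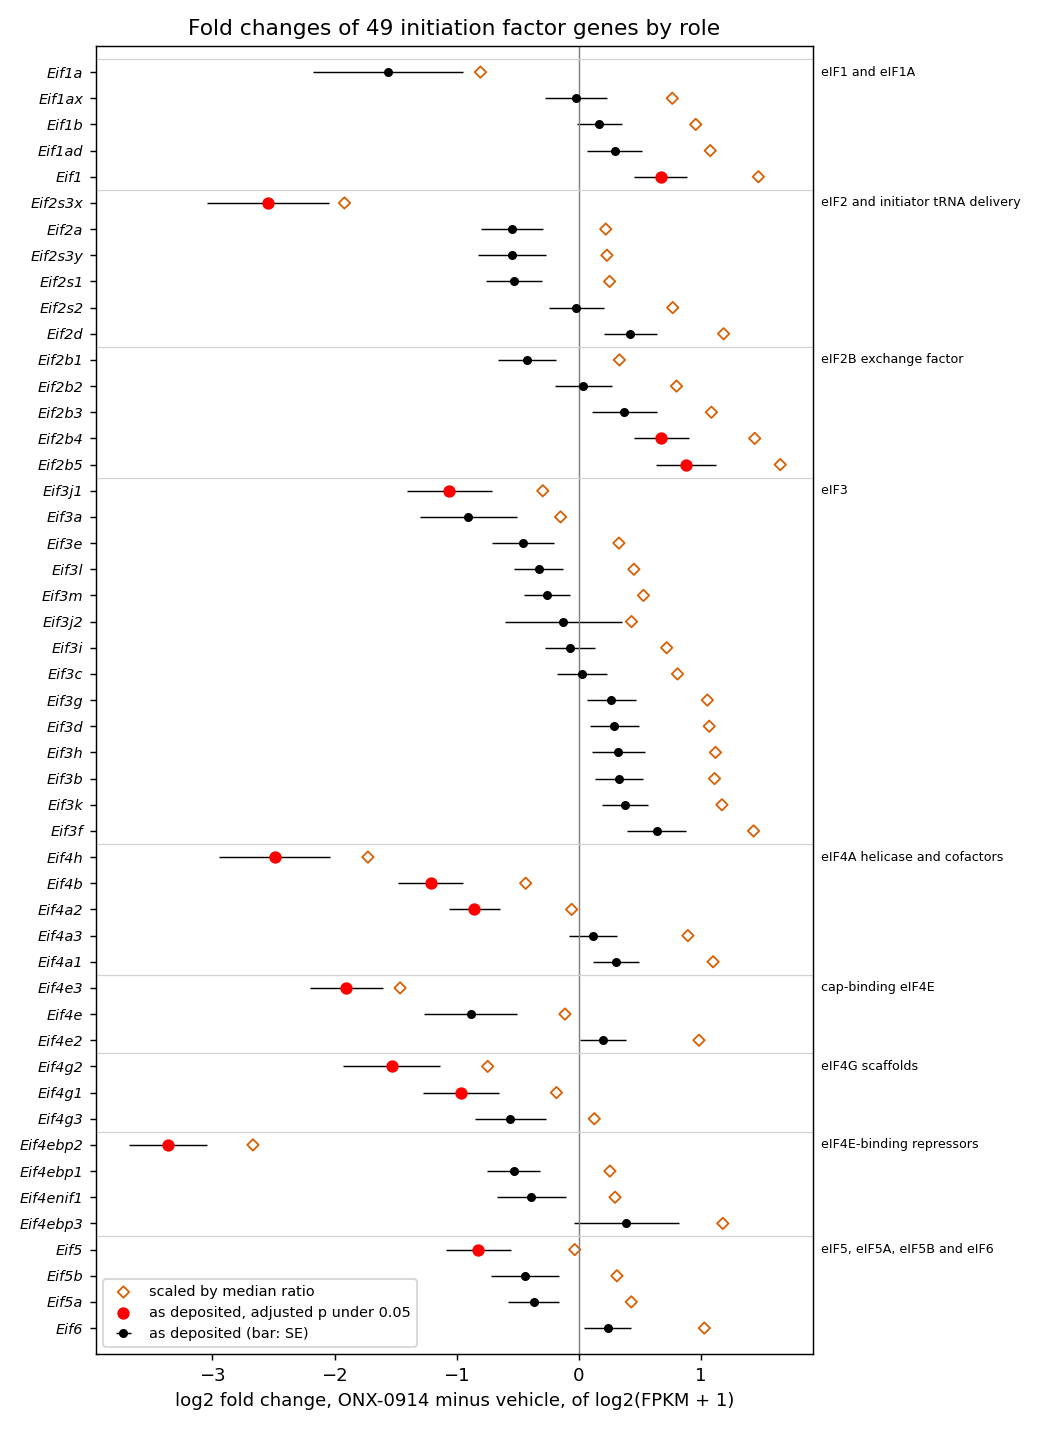
Log2 fold change (ONX-0914 minus vehicle, of FPKM + 1) of the 49 tested genes by role: circles with SE bars show the deposited scale, red where the adjusted p was under 0.05, and open diamonds the values after median ratio scaling. The diamonds lie to the right of the circles, and only Eif4ebp2, Eif2s3x, Eif4h and Eif4e3 stay below -1 under both.

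These calls rested unevenly on the libraries. With ONX-0914 3 left out, 6 genes rose (12.2%, against 6.87% of all genes) and 23 fell (46.9%, against 61.0%), and all 13 called genes were among them. Eif4e3 is counted among the falls here and in the next setting, though it passed the filter only through its vehicle values. Its place among these falls supports nothing. With ONX-0914 3 alone set against vehicle, a treated arm of 1 library that is assumed to vary like the controls, none rose (2.90% of all genes did) and 7 fell (14.3%, against 29.3%): Eif4ebp2, Eif2s3x, Eif4h, Eif4e3, Eif4g2, Eif4b and Eif4a2. None of the 3 rises passed when vehicle 1, 2 or 4 or ONX-0914 1 or 4 was left out, with adjusted p between 0.054 and 0.168 and log2 differences between 0.52 and 0.93. Calls over all genes were fewer there too: 0.782% to 1.25% rose, against 2.56% with all libraries, and 18.1% to 30.2% fell, against 43.5%. Eif4ebp2, Eif2s3x, Eif4h and Eif4b fell whichever of the 6 libraries was left out.

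The sequence before the RefSeq start site is shown for Eif4ebp2 and Eif4h, which fell, and for Eif1 and Eif2b5, which rose, since their calls held after median ratio scaling and with the length trend removed. For the rises this rule of choice was a weak one, since both settings raised their differences. For Eif2s3x and Eif2b4, 150 and 250 of the 250 bases lie in annotated exons, so they are not printed; Eif4e3 had no entry. Printed are up to 170 bases of build GRCm38.p6 outside any GENCODE exon, 5′ to 3′ on the gene's strand, with matches to a searched motif in capitals. Eif4ebp2 is at chr10:61452670-61452839 (minus strand), Eif4h at chr5:134639491-134639659 (minus), Eif1 at chr11:100319715-100319884 (plus) and Eif2b5 at chr16:20498647-20498816 (plus).
Eif4ebp2: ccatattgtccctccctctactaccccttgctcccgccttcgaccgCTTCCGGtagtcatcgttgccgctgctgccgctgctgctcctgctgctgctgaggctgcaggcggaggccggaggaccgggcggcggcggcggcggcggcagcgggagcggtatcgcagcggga
Eif4h: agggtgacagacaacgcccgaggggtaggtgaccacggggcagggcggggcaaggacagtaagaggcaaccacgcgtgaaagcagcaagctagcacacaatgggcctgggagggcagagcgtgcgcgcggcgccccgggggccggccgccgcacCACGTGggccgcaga
Eif1: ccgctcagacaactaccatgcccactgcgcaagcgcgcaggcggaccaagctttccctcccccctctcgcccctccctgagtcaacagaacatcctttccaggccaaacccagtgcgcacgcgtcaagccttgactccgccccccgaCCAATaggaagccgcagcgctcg
Eif2b5: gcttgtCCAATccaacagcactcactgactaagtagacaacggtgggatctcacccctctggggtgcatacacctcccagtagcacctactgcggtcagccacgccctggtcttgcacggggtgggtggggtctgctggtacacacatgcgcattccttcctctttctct
The 250 bases before each start were searched on both strands for CACGTG (E-box), CCGGAAG (ETS), GCATGCGC (NRF1-like), CCAAT, TTGCATCA (an ATF4 composite) and TATAAA. The capitals mark CCGGAAG at -124 of Eif4ebp2, read there on the other strand, CACGTG at -96 of Eif4h, and CCAAT at -87 of Eif1 and -164 of Eif2b5. Eif2b4, the third gene that rose, also held CCAAT, at -64, within bases that lie in annotated exons. It was not found in the windows of Eif4ebp2, Eif4h and Eif2s3x, and these few genes, picked by their calls, carry no test. CCAAT occurred in 33.8% of all 32851 RefSeq promoters and in 9 of the 38 tested members with an entry (23.7%). CCGGAAG was found in 9 of these 38 (23.7%, against 6.91% of all promoters) and CACGTG in 6 (15.8%, against 6.02%). GCATGCGC was in 3 (7.89%, against 2.26%), with the match in Eif4h at -27, outside the printed bases. The ATF4 composite was in none of the 38 and in 0.791% of all promoters. The members' windows were also richer in G and C, with a median of 59% against 52.4%, and a match here is a description of letters only.

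Among the eIF4E-binding repressors, Eif4ebp2 had the steepest fall of the whole set. Its FPKM was 49.2, 42.3 and 44.3 in vehicle 1, 2 and 4, against 3.65, 5.80 and 1.84 in treated libraries 1, 3 and 4. Every treated library was far below every control, and the spread within a group was small beside the gap. The group means were 45.2 ± 3.55 and 3.76 ± 1.98 (SD, n = 3), a 12.0-fold fall, with a log2 difference of -3.37 (SE 0.32, adjusted p = 0.000927). It was -2.67 after median ratio scaling and -2.44 with the length trend removed, and none of its transcript's 50-base stretches occurs in another gene's transcripts.

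The other repressor genes were not called. Eif4ebp1, whose product is the best-studied target of mTORC1, was at 80.6, 88.0 and 67.3 in vehicle and 42.5, 59.7 and 60.9 in treated libraries. The treated values all lay below the controls, but the log2 difference of -0.53 missed the threshold (SE 0.22, adjusted p = 0.0727), and it was 0.26 after median ratio scaling. Eif4ebp3 ranged from 38.2 to 139.8 in vehicle and from 64.8 to 115.9 in treated libraries, so the groups overlapped (log2 difference 0.39, adjusted p = 0.465); 67.3% of its exon bases overlap another gene. Eif4enif1, which encodes the eIF4E transporter, differed by -0.39 and was not called.

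The balance between these genes was read as ratios within a library, which do not depend on any scaling between libraries. They still carry any trend with transcript length. The longest transcripts of Eif4ebp2, Eif4e and Eif4ebp1 are 5784, 4991 and 1997 nt. These ratios were chosen after the values were seen and carry no test. For each FPKM of Eif4e there were 1.05, 0.973 and 0.969 of Eif4ebp2 in the vehicle libraries and 0.214, 0.119 and 0.112 in the treated ones. Eif4ebp1 was 1.52 to 2.08 times Eif4ebp2 in vehicle, against 11.6, 10.3 and 33.1 times in treated libraries 1, 3 and 4. The repressor transcript that had equalled Eif4e in the controls was therefore a small fraction of it in all 3 treated libraries, ONX-0914 3 included, while Eif4ebp1 exceeded Eif4ebp2 in every library. Eif4ebp1 over Eif4e overlapped between the groups (1.47 to 2.03 and 1.22 to 3.71).

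**Figure D2:**
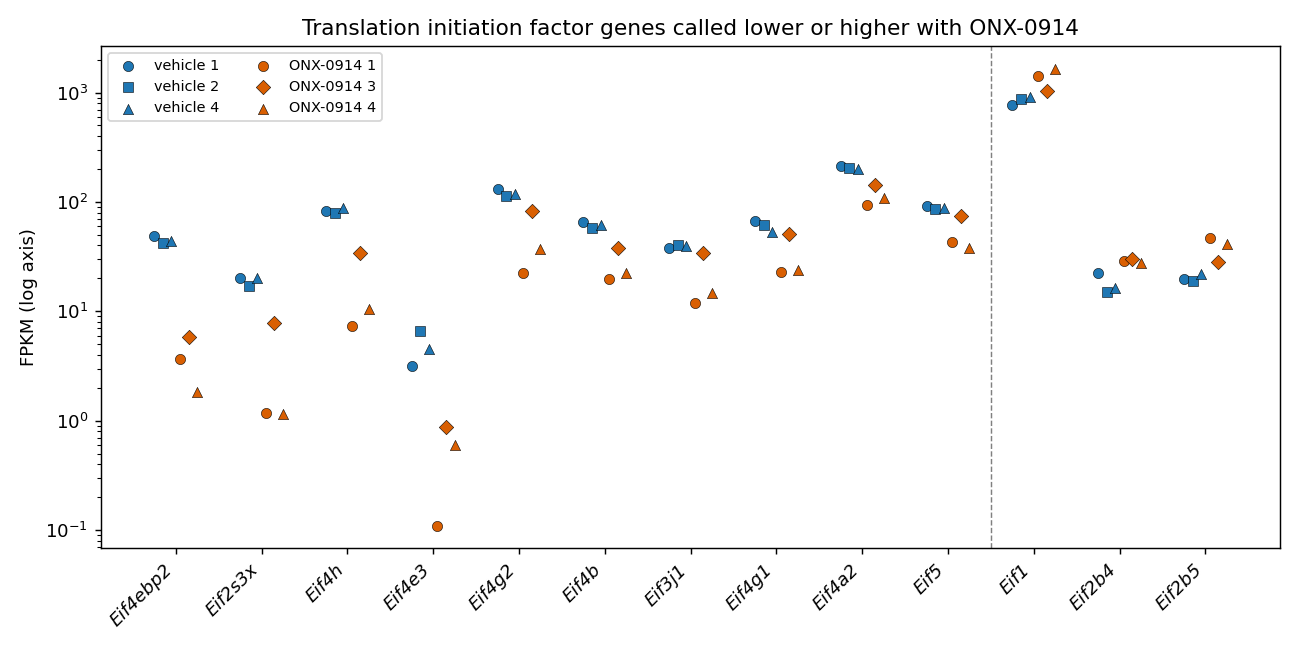
FPKM (log axis) of the 13 called genes in each library, blue for vehicle and orange for ONX-0914, with falls left of the dashed line and rises right of it. In every gene the 3 treated points lie wholly to 1 side of the 3 vehicle points, and for all 10 falls the diamond of ONX-0914 3 is the treated point nearest to the controls.

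The cap-binding genes differed among themselves. Eif4e, which encodes the main cap-binding protein, was at 46.7, 43.5 and 45.7 in vehicle, against 17.0, 48.9 and 16.4 in treated libraries 1, 3 and 4. ONX-0914 3 was above all controls and the other treated libraries were well below them, so the groups overlapped and the difference of -0.89 was not called (SE 0.38, adjusted p = 0.0793). Eif4e2, whose product 4EHP binds the cap without recruiting eIF4G, was at 48.3, 43.8 and 48.7 in vehicle and 59.8, 50.7 and 51.8 in treated libraries. It did not pass either (0.20, adjusted p = 0.403), though all treated values were above the controls, and it was called higher after median ratio scaling (0.98). Eif4e3, a low-abundance homologue, was at 3.14, 6.63 and 4.50 in vehicle and 0.11, 0.87 and 0.60 in treated libraries, a log2 difference of -1.90. All its treated values are under the level of 1 used as the filter, which it passed through the vehicle libraries, so no test is given; the difference was -1.46 after median ratio scaling and -1.24 with the length trend removed.

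Of the eIF4G scaffold genes, 2 of 3 fell, against 43.5% of all genes. Eif4g2, which encodes DAP5, an eIF4G-like protein without the eIF4E-binding part, was at 130.3, 113.3 and 118.5 in vehicle and 22.3, 82.4 and 37.2 in treated libraries (-1.53, SE 0.39, adjusted p = 0.0135). Eif4g1, the main scaffold, went from 67.1, 61.7 and 52.6 to 22.7, 51.1 and 24.0 (-0.96, SE 0.31, adjusted p = 0.0311). Its value in ONX-0914 3 was just under the lowest control, and the other treated libraries were at less than the lowest control by a wide margin. Eif4g3 differed by -0.56 and was not called (adjusted p = 0.135). None of the 3 was called with the length trend removed or after median ratio scaling, where Eif4g1 was at -0.18, Eif4g2 at -0.75 and Eif4g3 at 0.13. Eif4g1 was not called when any library other than ONX-0914 3 was left out (highest adjusted p 0.116), and Eif4g2 was not called without vehicle 1 or without ONX-0914 4 (highest 0.0556). Summed over the 3 genes, scaffold FPKM was 206.5, 183.1 and 178.2 in vehicle and 50.8, 140.3 and 64.6 in treated libraries.

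The helicase and its cofactors also split. Eif4h, whose product stimulates eIF4A, was at 82.7, 79.8 and 88.8 in vehicle, against 7.37, 34.4 and 10.6 in treated libraries 1, 3 and 4 (-2.49, SE 0.45, adjusted p = 0.00381). The fall was steep in ONX-0914 1 and 4 and smaller in ONX-0914 3, and the difference was -1.73 after median ratio scaling. Eif4b, the related cofactor and a target of S6 kinase, went from 65.1, 57.4 and 61.4 to 19.9, 38.3 and 22.5 (-1.21, SE 0.26, adjusted p = 0.00694). After median ratio scaling it was at -0.43 and not called. In each treated library Eif4h was under Eif4b (ratios 0.371, 0.898 and 0.468) and in each control it was above it (1.27, 1.39 and 1.45).

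The helicase paralogues parted company. Eif4a1 was at 214.4, 210.3 and 212.6 in vehicle and 285.6, 289.9 and 218.0 in treated libraries, a difference of 0.30 that was not called (adjusted p = 0.209). Eif4a2 fell from 214.9, 202.4 and 199.7 to 93.4, 144.3 and 107.9 (-0.85, SE 0.21, adjusted p = 0.0111), a call lost without vehicle 1 or 2 (highest adjusted p 0.0618). The paralogues were level in the controls, with ratios of Eif4a1 to Eif4a2 of 0.998, 1.04 and 1.06, and the ratios were 3.06, 2.01 and 2.02 in the treated libraries. On the median ratio scale Eif4a1 was higher (1.10) and Eif4a2 was at -0.06. This scaling divides each library by 1 factor and leaves the ratio of the pair as it was, so the gap there is not a second result. Only its reading changed, from a fall of Eif4a2 on the deposited scale to a rise of Eif4a1 on the other. Of the 50-base stretches of Eif4a1, 65.3% occur in other genes' transcripts, mainly a pseudogene, so its level is less certain. Eif4a3, the helicase of the exon junction complex, differed by 0.12 and was not called.

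Within eIF2, the only call on the deposited scale was that of a gamma subunit gene. Eif2s3x was at 20.2, 16.9 and 20.3 in vehicle, against 1.17, 7.80 and 1.15 in treated libraries 1, 3 and 4 (-2.54, SE 0.50, adjusted p = 0.00494). All treated values were below the controls, and ONX-0914 3 lay between the other treated libraries and the controls. Eif2s3y, the Y-linked homologue that also encodes eIF2 gamma in males, was at 48.3, 42.2 and 29.7 in vehicle and 23.0, 37.4 and 22.0 in treated libraries, with overlapping groups and no call (-0.55, adjusted p = 0.133). Eif2s3y was 2.39, 2.49 and 1.46 times Eif2s3x in the controls and 19.6, 4.79 and 19.1 times in the treated libraries. Of the 50-base stretches of Eif2s3x, 36.2% occur in Gm2223, and none of those of Eif2s3y occurs in another gene.

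The genes of the other eIF2 subunits were not called on the deposited scale. Eif2s1, the alpha subunit that the stress kinases phosphorylate, was at 59.8, 48.9 and 49.1 in vehicle and 34.1, 46.3 and 29.4 in treated libraries (-0.53, SE 0.23, adjusted p = 0.0837). The treated values lay below the controls, with ONX-0914 3 only just so, and the difference was 0.25 after median ratio scaling. Eif2s2, the beta subunit, differed by -0.02, but it was called higher after median ratio scaling (0.77) and with the length trend removed (0.65). Eif2a and Eif2d, whose products can bring initiator tRNA without eIF2, differed by -0.55 and 0.42, and neither passed on the deposited scale. Eif2d was called higher after median ratio scaling (1.19) and with the length trend removed (1.22), and Eif2a was called under neither (0.22 and 0.06). Gamma over alpha, Eif2s3x to Eif2s1, was 0.338 to 0.414 in vehicle and 0.0344, 0.169 and 0.0391 in treated libraries.

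**Figure D3:**
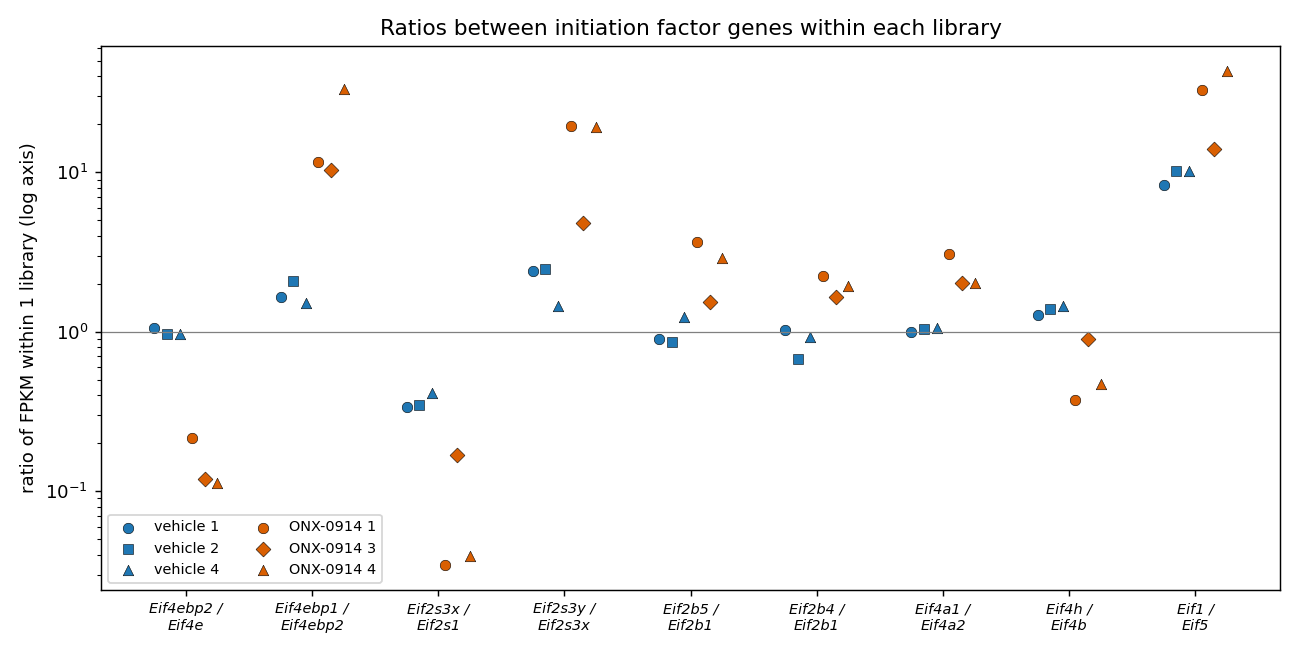
Ratios of FPKM between pairs of initiation factor genes within each library (log axis, line at 1), blue for vehicle and orange for ONX-0914. In all 9 pairs shown, which were picked after the values were seen, the 3 treated ratios lie outside the range of the 3 vehicle ratios. The ratios still carry any trend with transcript length.

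The exchange factor eIF2B contributed 2 of the 3 rises, 2 of its 5 genes against 2.56% of all genes. Eif2b5, its catalytic epsilon subunit, was at 19.8, 19.1 and 21.9 in vehicle, against 47.3, 28.1 and 41.6 in treated libraries 1, 3 and 4 (0.88, SE 0.24, adjusted p = 0.0179). Eif2b4, the delta subunit, was at 22.6, 15.02 and 16.5 in vehicle and 29.0, 30.3 and 27.8 in treated libraries (0.68, SE 0.23, adjusted p = 0.0364). All treated values exceeded all controls for each gene, and ONX-0914 3 was the highest treated library for Eif2b4 and the lowest for Eif2b5. The gamma subunit gene Eif2b3 differed by 0.37, the beta gene Eif2b2 by 0.04 and the alpha gene Eif2b1 by -0.42, none of them called. After median ratio scaling 4 of the 5 were higher, against 13.8% of all genes, with Eif2b5 at 1.65 and Eif2b4 at 1.44. With the length trend removed 3 were higher, against 9.61%. Against Eif2b1, Eif2b5 stood at 0.900, 0.861 and 1.24 in the controls and at 3.67, 1.53 and 2.89 in the treated libraries. The sum over the 5 genes was 91.3, 81.7 and 84.6 in vehicle and 127.7, 104.3 and 108.7 in treated libraries. Both calls were lost when any library but ONX-0914 3 was left out, as given above.

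The factors eIF1 and eIF1A guide scanning and start codon choice. Of the 5 genes grouped here by a symbol beginning with Eif1, 1 rose, against 2.56% of all genes. The count was 3 after median ratio scaling, against 13.8% of all genes, and 2 with the length trend removed, against 9.61%. Eif1ad, in the group by its symbol alone, is in both of these counts (1.08 and 0.97). Eif1 had the highest mean FPKM of the set, at 768.9, 871.8 and 902.1 in vehicle and 1421, 1042 and 1650 in treated libraries (0.67, SE 0.22, adjusted p = 0.0328). All treated libraries were above the controls, ONX-0914 3 by the least. Eif1 was also called higher after median ratio scaling (1.47) and with the length trend removed (0.89), settings that raised its difference. It was not called after quantile normalization (0.47, adjusted p = 0.0712) or with no filter on low values (adjusted p = 0.0516). Some 31.6% of its 50-base stretches occur in other genes' transcripts. Eif1a was at 58.5, 38.4 and 59.4 in vehicle, against 7.28, 57.0 and 10.4 in treated libraries 1, 3 and 4. Its difference of -1.56 was not called (SE 0.61, adjusted p = 0.0614), since ONX-0914 3 lay within the range of the controls. Its X-linked homologue Eif1ax differed by -0.02, Eif1b by 0.17 and Eif1ad by 0.29, with no call.

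The multisubunit factor eIF3, which holds the preinitiation complex together, was mostly uncalled. Of its 14 genes none rose (2.56% of all genes did), 1 fell (against 43.5%) and 13 were not called, with a median difference of -0.02. Eif3j1, a loosely bound subunit, went from 37.9, 40.1 and 39.4 to 11.8, 34.02 and 14.9 (-1.06, SE 0.35, adjusted p = 0.0332), but it was not called when any library other than ONX-0914 3 was left out (highest adjusted p 0.113) or after median ratio scaling (-0.29). Eif3j1 and Eif3j2 share much sequence, with 39.4% of the 50-base stretches of Eif3j1 found in Eif3j2 and 90.8% of those of Eif3j2 in Eif3j1, so reads may be split between them.

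None of the core eIF3 genes passed on the deposited scale, and their differences had either sign. Eif3a, the largest subunit, was at 32.3, 23.1 and 26.8 in vehicle, against 10.2, 29.5 and 8.98 in treated libraries 1, 3 and 4 (-0.90, adjusted p = 0.0897). Eif3b, its partner in the core, was at 38.5, 36.9 and 34.8 in vehicle and 41.4, 46.8 and 51.5 in treated libraries (0.33, adjusted p = 0.187). Eif3f was at 78.7, 94.0 and 76.2 in vehicle and 168.2, 95.3 and 134.4 in treated libraries (0.64, adjusted p = 0.0533). Neither Eif3b nor Eif3f passed, though all their treated values were above all controls. Within a library, Eif3b over Eif3a was 1.19, 1.6 and 1.3 in vehicle and 4.07, 1.59 and 5.74 in treated libraries, and Eif3f over Eif3a was 2.44, 4.07 and 2.85, then 16.5, 3.23 and 15. Both ratios overlapped between the groups through ONX-0914 3. After median ratio scaling 7 of the 14 were higher (50%, against 13.8% of all genes), Eif3b and Eif3f (1.43) among them, and none was lower (14.2% of all genes were). With the length trend removed 4 were higher (28.6%, against 9.61%).

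The spread between eIF3 subunits differed between libraries. Over the 12 subunit genes without Eif3j1 and Eif3j2, the ratio of the highest to the lowest FPKM within a library was 4.01, 5.82 and 4.56 in vehicle, against 20.7, 4.50 and 16.7 in treated libraries 1, 3 and 4. The lowest gene was Eif3a and the highest Eif3h in all 6 libraries. The wider range was seen in ONX-0914 1 and 4, and ONX-0914 3 fell within the controls. Summed FPKM of the 12 genes was 763.2 to 795.9 in vehicle and 953.7, 803.5 and 841.9 in treated libraries.

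**Figure D4:**
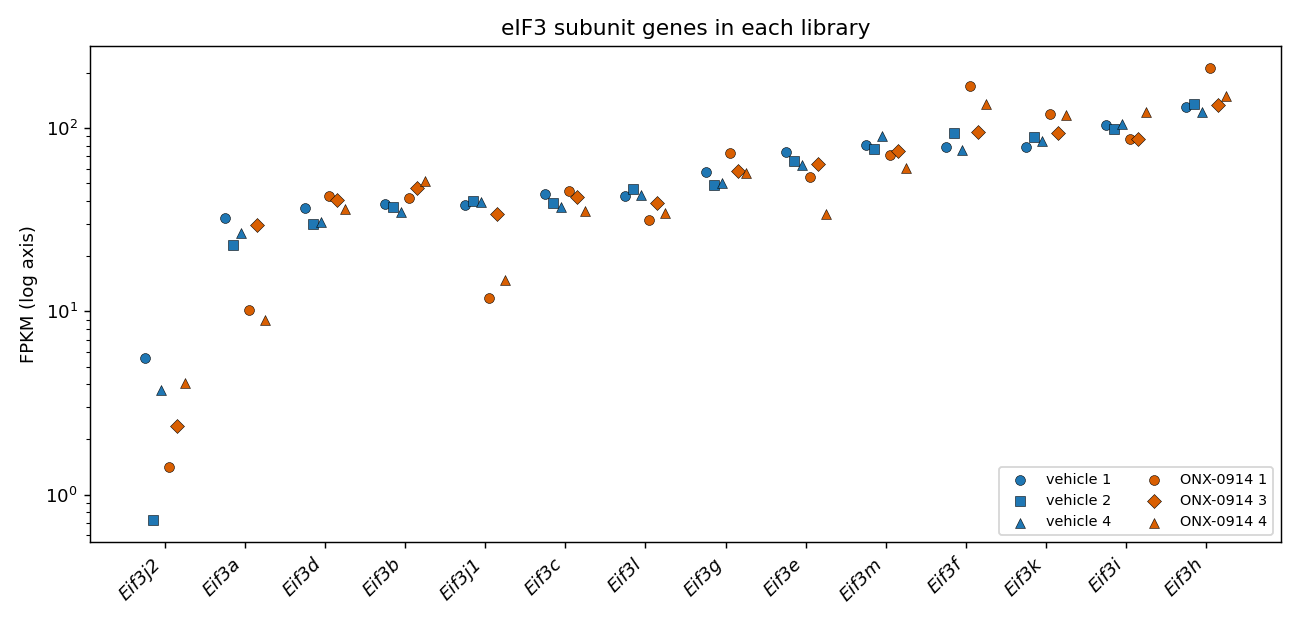
FPKM (log axis) of the 14 eIF3 genes in each library, ordered by level, blue for vehicle and orange for ONX-0914. Among others, Eif3a, Eif3j1 and Eif3e hold ONX-0914 1 and 4 below the controls, whereas Eif3f and Eif3k hold them above.

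Of the factors acting late in initiation, only Eif5 passed. Eif5, whose product triggers GTP hydrolysis by eIF2, was at 92.7, 85.4 and 88.4 in vehicle and 43.3, 74.9 and 38.0 in treated libraries (-0.82, SE 0.26, adjusted p = 0.0306). The call was lost when any library other than ONX-0914 3 was left out (highest adjusted p 0.111), and the difference was -0.03 after median ratio scaling and 0.05 with the length trend removed. Eif1 over Eif5, a pair with opposite roles in start codon stringency, was 8.30, 10.2 and 10.2 in vehicle and 32.8, 13.9 and 43.4 in treated libraries. Eif5a, a hypusine-bearing factor that also serves elongation, was at 592.0, 664.9 and 684.7 in vehicle and 387.9, 573.7 and 561.2 in treated libraries (-0.37, adjusted p = 0.173). Eif5b, the subunit-joining GTPase, was at 21.5, 16.1 and 17.4 in vehicle and 11.5, 19.1 and 10.3 in treated libraries (-0.44, adjusted p = 0.217). Eif6, which keeps the large ribosomal subunit from joining early, was at 86.5, 71.0 and 78.8 in vehicle and 89.5, 84.1 and 105.8 in treated libraries (0.24, adjusted p = 0.33). None of these 3 was called, and Eif6 was higher after median ratio scaling (1.03).

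Long initiation factor genes had lower differences than short ones, without an even decline between. Across the 49 genes Spearman's rho between the longest protein-coding transcript and the log2 difference was -0.52, and across 10480 tested genes with a length it was -0.40; genes are not independent replicates, and they share the libraries. The 9 members under 1500 nt had a median difference of 0.27, with 1 rise and no fall (7.67% and 15.7% of all genes of that length). The 13 members from 1500 to under 2500 nt had a median of -0.13, with 1 rise and no fall (3.07% and 36% of all). The 17 members from 2500 to under 4000 nt had a median of -0.02, above that of the shorter class. They had 1 rise and 5 falls (1.19% and 49.8% of all), with Eif4e3 among the falls. The 10 members of 4000 nt or more had a median of -0.89, with no rise and 5 falls, against 59.8% of all genes of that length that fell. In these long genes the median was -1.3 in ONX-0914 1 and 4 and -0.21 in ONX-0914 3. Over all genes the medians of the 4 classes were -0.02, -0.48, -0.75 and -0.87. The members were shorter than all tested genes, with median lengths of 2542 and 2906 nt. Whether RNA quality differed between the libraries was not tested.

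**Figure D5:**
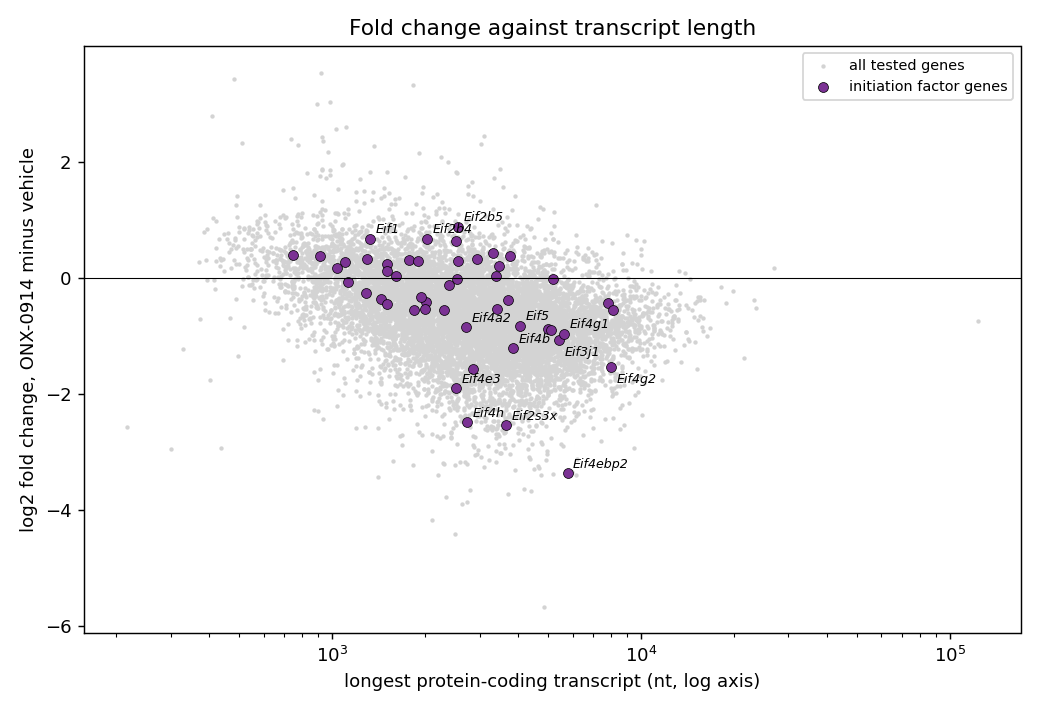
Log2 fold change (ONX-0914 minus vehicle) against the longest protein-coding transcript (nt, log axis), with all tested genes in grey, the initiation factor genes in purple and the 13 called ones named. Long genes lie lower, and Eif4ebp2, Eif2s3x and Eif4h lie near the lower edge of genes of their length.

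The regulators that act on these factors were read from lists of the pathway. Of 6 genes for eIF2 kinases and the phosphatase subunits that reverse them, none rose and 2 fell: Eif2ak1, the heme-regulated kinase (-1.15), and Ppp1r15b, the constitutive phosphatase subunit (-1.70). Of 10 genes of mTORC1 and its inputs none rose and 3 fell, namely the inhibitor Deptor (-2.60), the subunit Rptor (-1.44) and the upstream repressor Tsc1 (-0.88). Of 21 further modulators of initiation none rose and 9 fell, among them Larp4 (-1.90), the helicase Ddx3x (-1.74) and the eIF4E kinase Mknk2 (-1.68). Of 10 elongation and termination genes none rose and 3 fell, Eef2k, Etf1 and Gspt1. The shares that fell compare with 43.5% of all genes. After median ratio scaling the counts higher and lower were, in order, 1 and 1, 0 and 2, 2 and 2, and 5 and 0. On that scale 13.8% of all genes were higher and 14.2% lower. Ppp1r15b, Deptor, Rptor, Larp4 and Ddx3x were still lower. Called higher were Ppp1r15a, Denr, Dohh, Eef1a1, Eef1d, Eef1g, Eef2 and Tpt1. With the length trend removed the counts were 1 and 1, 0 and 1, 1 and 0, and 4 and 0. The shares of all genes were then 9.61% higher and 11.7% lower. Only Ppp1r15b and Deptor among these genes stayed lower, and no modulator did. Dohh and Tpt1 were no longer called higher.

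Summed over all 52 genes, FPKM was 4070, 4184 and 4141 in vehicle and 4136, 4160 and 4356 in treated libraries. The totals of the groups overlapped. Eif1 alone made up 768.9, 871.8 and 902.1 of these totals in vehicle and 1421, 1042 and 1650 in treated libraries. The overlap therefore rests in part on the rise of Eif1 and does not show that the other genes kept their level. The median difference of the members from the vehicle mean was -0.32, 0.01 and -0.35 in ONX-0914 1, 3 and 4.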

How the data were processed

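Liver RNA of 6 libraries, 3 a group, was analysed. The authors deposited FPKM values per gene; the unit was read from the values. Per the submitters' processing notes, the tools were HISAT2 2.0.1, featureCounts 1.6.0, edgeR, FastQC 0.11.5 and cutadapt 1.11, with GRCm38 (mm10); for the gene annotation, none is named in the sources used. The files used give no counts, so depth is unknown; summed FPKM was 993264 to 1247789 a library.

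Genes above 1 in at least 3 libraries were tested on log2(FPKM + 1) with limma 3.58.1 (R 4.3.3; mean-variance trend, two-sided, Benjamini-Hochberg over all tested genes), checked on simulated data. Fold changes on this scale understate those of low genes. The members and lists were chosen with earlier results of these data known. Library values are given for core members and, by rule, for the 8 called genes of largest change in each direction, or all where fewer; Eif4a2, Eif4e2, Eif2s3y and Eif3f were added after their values were seen. Lengths, coordinates and shared 50-base stretches came from GENCODE M21. Alternatives covered scaling, filter, pseudocount, length and left-out libraries.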

Additional observations from a re-analysis of the deposited data

How the results depend on the processing

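Eif4ebp2, Eif2s3x and Eif4h were called lower under all 17 alternatives. Eif4e3 could not be tested with a vehicle library left out, since it passes the filter through those only. It is in each count of members called lower in the list that follows, where its place supports nothing. The members called higher (3) numbered 20 after median ratio scaling, 13 after quantile normalization, 13 with the length trend removed, 0 with ONX-0914 3 alone and 18 with ratios over genes above 1 in all libraries; those called lower (10) numbered 4, 7, 4, 7 and 4. All genes called higher (275) numbered 1481, 1118, 1007, 306 and 1036, and lower (4673) 1528, 1334, 1222, 3097 and 2007. The members' median became 0.45, 0.24, 0.28, 0.012 and 0.29. ONX-0914 3 alone, the ratios over genes above 1 and a robust variance (no changed call among members; 276 and 4684 of all genes) were chosen after seeing the data. Of 29 negative differences among the members, 16 turned positive after median ratio scaling and 14 with the length trend removed. Among core and called members they turned positive for Eif5b (0.31, 0.24, 0.43, 0.069, 0.12 in that order), Eif2s1 (median ratio 0.25, length 0.28, genes above 1 0.057), Eif4ebp1 (median ratio 0.26, genes above 1 0.057), Eif5a (0.43, 0.23), Eif4e (length 0.035, ONX-0914 3 alone 0.11), Eif3a (0.022, 0.12), Eif1a (ONX-0914 3 alone 0.15) and Eif5 (length 0.050). Leaving out each library gave 0 to 6 members higher and 4 to 23 lower, and 78 (without vehicle 1) to 730 (without ONX-0914 3) genes higher and 1804 to 6485 lower. Same-numbered libraries are linked here by their number alone, and whether they were paired is not known. Correlations of their deviations from the group mean were 0.00113 (number 1) and 0.133 (number 4). The latter was the highest of all vehicle and treated pairs, and these values do not settle the matter. A fit with the replicate block gave 4 members higher and 19 lower, and 604 and 5973 genes. Its difference rests only on vehicle 1 and 4 and ONX-0914 1 and 4. The remaining library of each group has no same-numbered partner, so ONX-0914 3 does not enter that difference. The effect of pairing was therefore not tested apart from the loss of these unpaired libraries. The cause of the changes in calls and signs between settings was not tested. Depth is unknown, and no interval for counting error can be given.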
